A study of Homo sapiens with 6 samples.

Results

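The type I interferon response genes are the antiviral and signalling genes that cells switch on when interferon alpha or beta reaches their surface. A set of 34 of them was taken by gene symbol: the ligand gene IFNB1, the transcription factors STAT2, IRF7 and IRF9, and 30 induced genes. The tables listed them on 37 lines of 38648, because IRF7, IRF9 and IFI27 each have a second listing on an alternate scaffold (IRF7-2, IRF9-2 and IFI27-2). Of the 37 listings, 36 passed the filter on low counts among 15381 tested, and IRF9-2, with 1 to 2 counts, did not. The libraries came from HPC, a human podocyte cell line labelled WT, whose parent cell wraps the filtering capillaries of the kidney. There were 3 libraries with a lentivirus made to overexpress PRDM16 and 3 with a negative control (NC) lentivirus. All 6 libraries came from cells in high glucose and carry 24 h in their titles, and the promoter that drives PRDM16 is not given. No culture without a lentivirus or in normal glucose was analysed here, so levels below are those of transduced cells in high glucose. The labels do not say that the 3 libraries of a group were separate cultures, so p-values reflect nothing beyond the spread of these 6 samples, and that spread may be technical.

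Type I interferons bind the receptor pair IFNAR1 and IFNAR2, whose kinases JAK1 and TYK2 phosphorylate STAT2. STAT2 joins IRF9 in a complex that binds a DNA element, the interferon stimulated response element (ISRE), in the promoters of the response genes. The products block viral entry, translation and genome copying, and some, such as USP18, damp the receptor again. Cells also keep a basal level of these transcripts without infection. In the kidney, interferon therapy and lupus are known settings of podocyte injury, and in mouse adipocytes PRDM16 is known to hold interferon response genes down. The comparison here asks what level these genes had in each podocyte library and whether it differed with PRDM16.

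Libraries held 20147135 to 41280350 gene counts. PRDM16 had 11, 18 and 24 counts in the PRDM16 libraries, against 0 in each NC library (edgeR quasi-likelihood test, Benjamini-Hochberg adjusted p = 7.7e-04), which follows the labels at a low level. In the PRDM16 libraries that was 0.163, 0.190 and 0.184 TPM (transcripts per 1000000, a length-corrected level). By mean TPM over all 6 libraries, 99.9% of tested genes were above PRDM16. The podocyte label was met in part. The markers PODXL, CD2AP and KIRREL1 stood at means of 53.7, 86.9 and 119 TPM, while NPHS1, WT1 and PTPRO had at most 4 counts in any library. Of 10 leukocyte markers, CD3E, CLEC4C and IL3RA were at 0, LYZ had at most 3 counts and PTPRC, the pan-leukocyte marker, 8 to 22 counts, while CD14, ITGAM and CSF1R had 8 to 63 counts and CD68, a lysosomal protein that other cells also make, had a mean of 263 TPM. Of 6 endothelial markers, KDR was at 0, PECAM1 had at most 2 counts, CLDN5 0 to 6, CDH5 3 to 12, TEK 14 to 31 and VWF 36 to 109 counts, and VWF, the highest of them in TPM, reached 0.823 TPM.

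The interferon response genes were highly expressed in all 6 libraries and their summed level was nearly the same in both groups. Together they made up 1.85, 1.74 and 1.91% of all TPM in PRDM16 libraries 1, 2 and 3, and 1.86, 1.70 and 1.69% in NC libraries 1, 2 and 3. As a share of raw counts they held 1.15, 1.13 and 1.23% in the PRDM16 libraries and 1.23, 1.2 and 1.16% in the NC libraries. On both scales the groups overlapped. The mean over the 36 tested listings of log2(CPM + 0.5), with CPM scaled by library, was 7.15, 7.09 and 7.14 in the PRDM16 libraries, against 7.23, 7.14 and 7.11 in the NC libraries. The group means were 7.13 ± 0.032 and 7.16 ± 0.060 (SD, n = 3 each). The difference of -0.032 was smaller than the SD of the NC group and about the size of that of the PRDM16 group. This mean sets listings of opposite sign against each other. The median log2 fold change, PRDM16 over NC, was -0.14, with 12 listings positive and 24 negative. IRF7, IRF9 and IFI27, which varied most between libraries, had 0.95, 0.49 and 0.44. Their second listings IRF7-2 and IFI27-2 had 0.30 and -0.48. In bulk RNA, fewer expressing cells and less RNA per cell cannot be told apart.

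Within the genome the set stood high. By mean TPM, 18 of the 36 tested listings were in the top 10% of tested genes, 33 were above the median gene, and the median member was at percentile 88.6. The antiviral mitochondrial protein gene IFI6 ranked 14 of 15381 and ISG15, which encodes a ubiquitin-like modifier, ranked 18. IFI6, ISG15 and BST2 were the listings with means over 1000 TPM, and 18 of 37 were over 100 TPM. The 4 most abundant genes (IFI6, ISG15, BST2 and IFI35) held 75.6 to 77.5% of the set's TPM in the PRDM16 libraries and 70.8 to 73.0% in the NC libraries. The summed level is therefore mostly a reading of these 4 genes. The median of the 36 tested listings was 85.1, 78.8 and 105 TPM in the PRDM16 libraries and 108, 149 and 98.7 TPM in the NC libraries. PRDM16 library 3 was above NC library 3. The median tested gene was also lower in TPM with PRDM16, at 10.5 to 12.0 TPM against 11.8 to 13.8 TPM with NC. On the log2(TPM + 0.5) scale the median difference over all tested genes was -0.13, so folds below are from scaled counts.

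**Figure D1:**
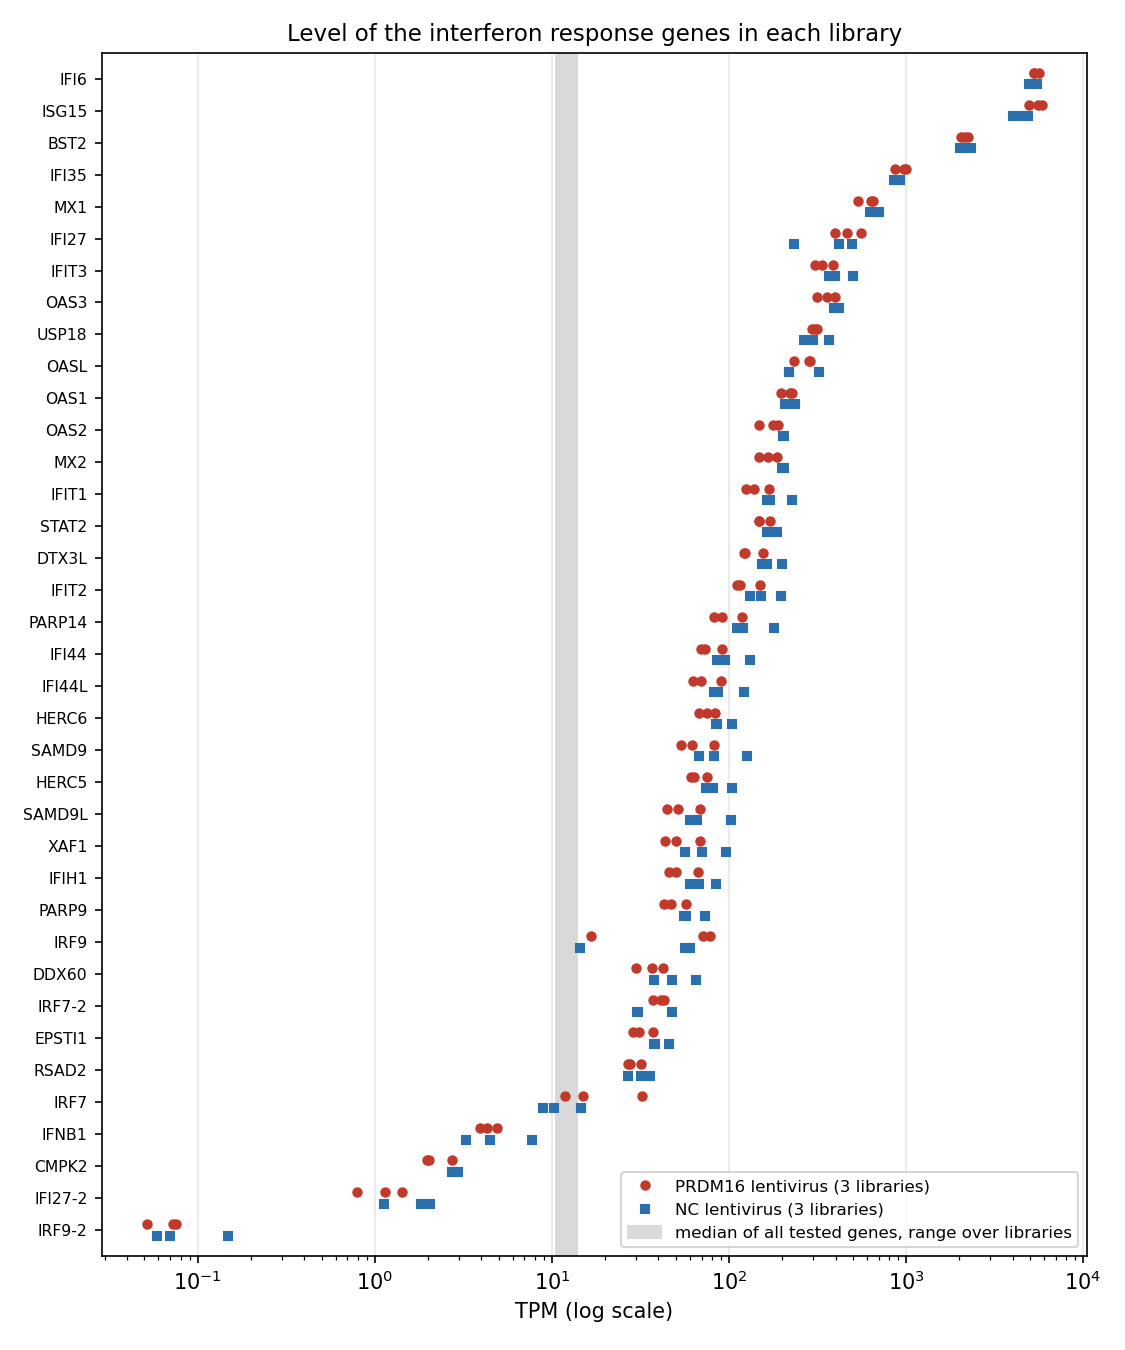
Level of each of the 37 interferon response listings (rows, ordered by mean) in TPM on a log axis, with a red dot for each of the 3 PRDM16 libraries and a blue square for each of the 3 NC libraries. The grey band is the range over libraries of the median tested gene; most listings lie to its right, from IFI6 and ISG15 at the top down to IFI27-2 and IRF9-2 at the bottom, and the groups overlap in most rows.

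At the median, the spread over libraries was close to that of all tested genes, which were not matched to the members for level. The highest library was 1.47-fold above the lowest at the median member, against 1.44-fold at the median of all tested genes, in scaled CPM. In 5 of the 36 listings the range was over 2-fold: IRF9, IRF7, IFI27, IFI27-2 and IFNB1. Of these 5, 4 belong to genes with more than 1 place in the annotation, and the last is IFNB1. Counts were low for IFNB1 (21 to 62 per library) and also for IFI27-2 (7 to 16).

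The promoters of the set were searched for the ISRE. RefSeq promoter windows (GRCh38.p14, 250 bases before to 50 after the start site) were found for 28 of the 34 genes, as 38 windows, with none matched for IRF7, USP18, IFIT2, OAS2, OASL and MX2. The core of the ISRE was searched as GAAANNGAAA on both strands. It was present in 23 of the 38 windows (60.5%), against 1255 of all 35116 windows (3.57%). By gene it was found in 19 of 28 (67.9%), against 4.38% of all genes with a window. A run of 3 repeats, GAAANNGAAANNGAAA, was in 4 windows (10.5%), those of ISG15, IFIH1, HERC5 and BST2, against 0.154% of all windows. The genes with a window but no core match were CMPK2, HERC6, IFI35, IFNB1, IRF9, OAS1, SAMD9L, STAT2 and XAF1. A match describes these letters in these windows and no factor was measured there. The genes were picked as interferon response genes, so an excess of this element comes with that choice and says nothing about these libraries.

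Windows of the genes with the smallest p in each direction, ISG15 (higher) and PARP14 (lower), are printed on the gene's strand (both plus) with matches in capitals. In ISG15, 2 overlapping matches join into the run of 3 repeats.
ISG15, chr1:1013247-1013546: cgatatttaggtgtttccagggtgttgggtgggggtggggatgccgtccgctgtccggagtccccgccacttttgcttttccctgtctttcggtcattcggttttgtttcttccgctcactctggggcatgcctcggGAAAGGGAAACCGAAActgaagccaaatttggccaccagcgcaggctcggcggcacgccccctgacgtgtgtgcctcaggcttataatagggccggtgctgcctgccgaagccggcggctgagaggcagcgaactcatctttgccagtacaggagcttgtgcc
PARP14, chr3:122680589-122680888: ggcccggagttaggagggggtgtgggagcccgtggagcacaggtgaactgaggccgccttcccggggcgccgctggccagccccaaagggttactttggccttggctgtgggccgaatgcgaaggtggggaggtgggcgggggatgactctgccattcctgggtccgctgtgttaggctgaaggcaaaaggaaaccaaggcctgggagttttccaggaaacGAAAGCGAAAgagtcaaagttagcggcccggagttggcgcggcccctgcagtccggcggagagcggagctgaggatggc

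For the other genes given in full below that hold the core, the 30 bases around 1 match are shown 5′ to 3′ on the gene's strand, again with the match in capitals. In IFI44 and IFIT1 the match is on the opposite strand, so it reads TTTC first.
IFI6, chr1:27672329-27672358: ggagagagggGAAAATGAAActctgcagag
BST2, chr19:17405741-17405770: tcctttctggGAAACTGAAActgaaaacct
DTX3L, chr3:122564322-122564351: ccagggaagcGAAACTGAAActttgcgccc
DDX60, chr4:168318786-168318815: gaggagaaagGAAACCGAAActcccgccgg
IFIT1, chr10:89392510-89392539: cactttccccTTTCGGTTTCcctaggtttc
IFI44, chr1:78649761-78649790: gcacactgagTTTCAGTTTCctttctctga
IFI6 holds 3 matches, DDX60, IFIT1 and BST2 hold 2 each, and DTX3L and IFI44 hold 1. The core is thus shared by genes whose values were higher with PRDM16 (ISG15, IFI6, BST2) and genes whose values were lower (PARP14, DTX3L, DDX60, IFIT1, IFI44).

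Between the lentiviruses, 0 of the 36 tested listings passed the edgeR quasi-likelihood test at a Benjamini-Hochberg adjusted p under 0.05 over all genes, in either direction. Over all 15381 tested genes 0.065% passed, 0.0585% higher and 0.0065% lower. DESeq2 and limma-voom also called 0 members (backgrounds of 0.299% and 0.026%). The smallest adjusted p was 0.245, for ISG15. At an unadjusted p under 0.05 there were 3 members, ISG15 higher and PARP14 and IFI44 lower, which is 3 of 36 against a background of 16.0% of all tested genes (9.23% higher and 6.76% lower). That share of the members is below the share of all genes. This count depended on single libraries: it was 12 without NC library 3 (background 18.1%), 12 without PRDM16 library 3 (16.5%), 11 without NC library 1 (26.6%) and 1 without NC library 2 (7.3%). It was 2 without PRDM16 library 1 and 4 without PRDM16 library 2. No background share is given here for those fits, so neither count can be placed above or below it. DESeq2 gave 10 of 37 (background 8.69% of 26696 genes, with no count filter) and limma-voom 3 of 36 (13.5% of 15381). The share of the members was above the background without NC library 1, NC library 3 or PRDM16 library 3, and below it without NC library 2 and in limma-voom. In DESeq2 it was above a background that includes genes under the count filter, so that background is not like the others. Of the 12 members, 11 were lower without NC library 3 (background 10.6%) and 11 without PRDM16 library 3 (7.03%). All 4 without PRDM16 library 2 were higher, with no background share to set beside them. The 2 groups did not overlap in scaled CPM for 3 listings that were higher with PRDM16 (ISG15, IFI6 and IFI35; background 12.2%) and 3 that were lower (DTX3L, HERC5 and EPSTI1; background 8.77%), with 21.0% of all tested genes in either direction. The median log2 fold change of the members, PRDM16 over NC, was -0.14, against -0.024 over all tested genes. Values were positive in 12 members and negative in 24, while 46.9% of all tested genes were positive.

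**Figure D2:**
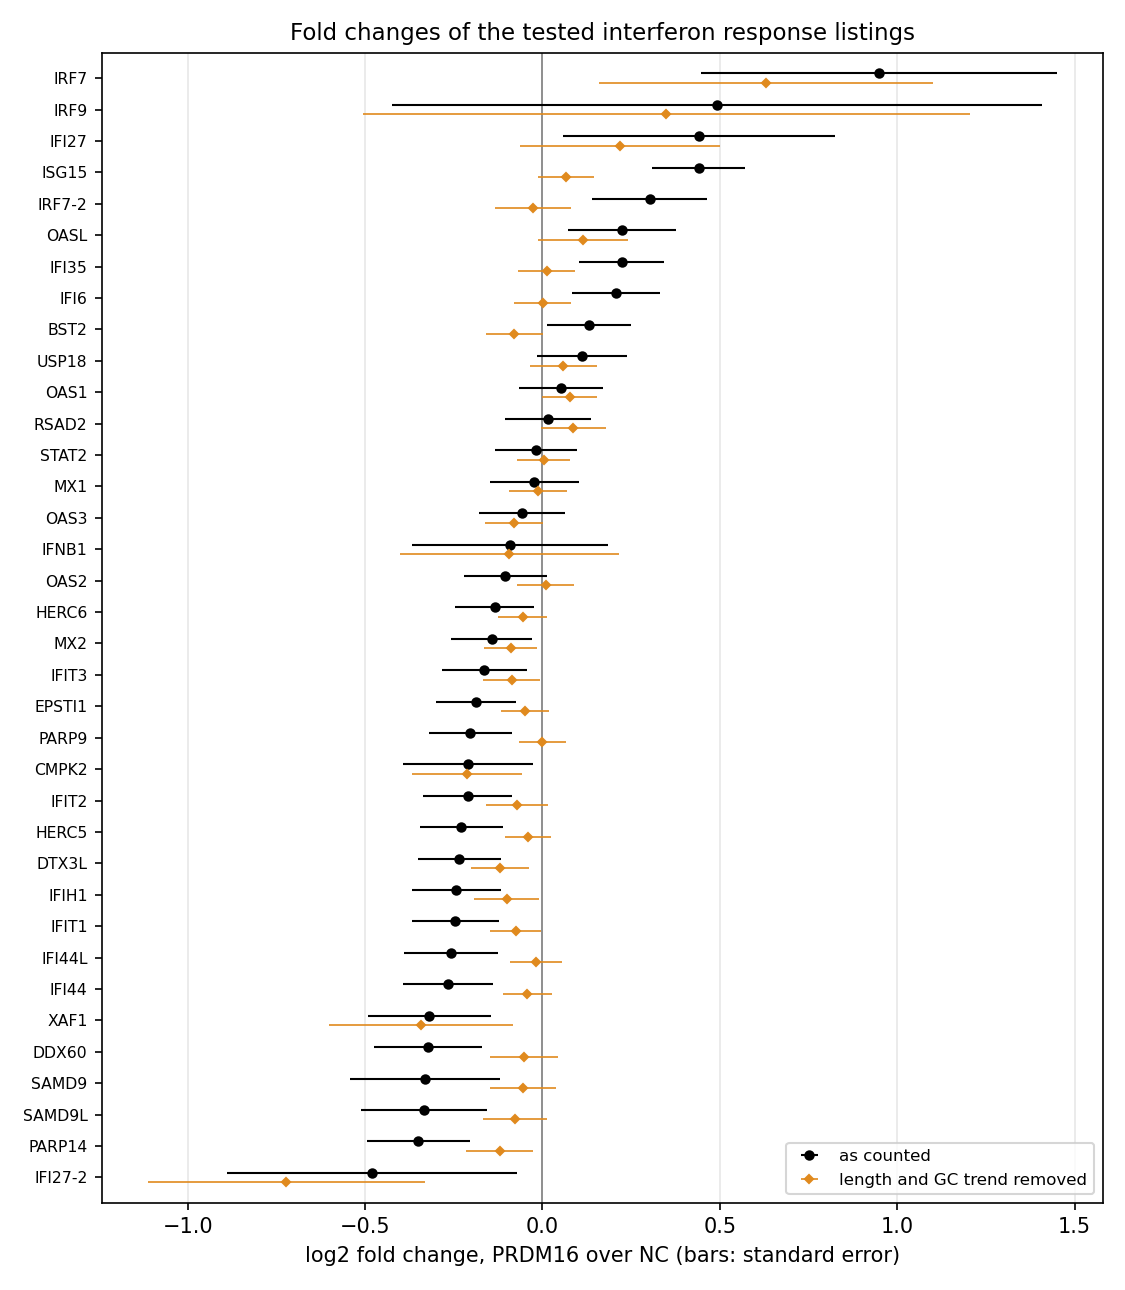
Log2 fold change, PRDM16 over NC, of the 36 tested listings (rows, ordered by value), in black as counted and in orange with the trend along gene length and GC content removed, with bars for the standard error. The black points run from 0.95 for IRF7 at the top to -0.48 for IFI27-2 at the bottom, and most orange points lie closer to 0 than the black ones.

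IFNB1, the gene of interferon beta, was present at a low level, and its difference between the groups was smaller than the spread of its libraries. It lies on chromosome 9 at 21077104 to 21077942 (minus strand) in hg38 and had 28, 36 and 62 counts in the PRDM16 libraries, against 52, 36 and 21 in the NC libraries. Its level was 4.29, 3.94 and 4.93 TPM with PRDM16 and 7.69, 4.50 and 3.28 TPM with NC, with the highest and the lowest library both in the NC group. The log2 fold change was -0.092 ± 0.28 (SE; edgeR adjusted p = 0.865), and 0.30 without NC library 1. The other interferon genes were close to absent: of 20 listed, the 13 interferon alpha genes had 0 counts in every library except for 1 count of IFNA2, IFNG, IFNK and IFNW1 had 0, and IFNL1, IFNL2 and IFNL3 had at most 4. A count of 0 allows up to 3 counts, or 0.0727 to 0.149 CPM depending on the library. IFNE, an epithelial interferon and the single one of these to pass the filter, had 5 to 21 counts (-0.47 ± 0.42 log2, SE; edgeR adjusted p = 0.534).

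STAT2, the partner of IRF9 in the response complex, was level across libraries at 148, 148 and 169 TPM with PRDM16 and 186, 167 and 164 TPM with NC, with a log2 fold change of -0.018 ± 0.11 (SE). IRF9 and IRF7, the factors that complete that complex and that drive the interferon alpha genes, varied far more and are treated below with their second listings. Of the sensing members, IFIH1, a sensor of long double-stranded RNA, ranged over 45.9 to 84.5 TPM (-0.24 ± 0.13 log2, SE). DDX60, a helicase linked to antiviral RNA sensing, lies on chromosome 4 at 168216293 to 168325981 (minus strand) and had 2892, 3287 and 6424 counts in the PRDM16 libraries, against 3902, 6287 and 2918 in the NC libraries. In TPM these were 36.8, 29.9 and 42.4 TPM with PRDM16 and 47.9, 65.2 and 37.8 TPM with NC: NC library 2 was highest, PRDM16 library 2 lowest, and the groups overlapped. Its log2 fold change of -0.32 ± 0.15 (SE) did not pass (edgeR adjusted p = 0.314) and was -0.13 without NC library 2.

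In the ISG15 system, the modifier itself was the member with the smallest p and its ligases had lower values. ISG15 lies on chromosome 1 at 1013497 to 1014540 (plus strand) and had 28993, 34509 and 53305 counts in the PRDM16 libraries, against 24950, 24341 and 21596 in the NC libraries. Its level was 5857, 4977 and 5582 TPM with PRDM16 and 4859, 4003 and 4444 TPM with NC, so that every PRDM16 library was above every NC library, by little between PRDM16 library 2 and NC library 1. The log2 fold change was 0.44 ± 0.13 (SE; edgeR adjusted p = 0.245), 0.35 without NC library 2 and 0.066 with the length and GC trend removed. ISG15 is the shortest of the listings and among the richest in GC, as described below. USP18, the protease that removes ISG15 and damps the receptor, was at 267 to 366 TPM (0.11 ± 0.13 log2, SE). HERC5, the main ISG15 ligase in human cells, had 63.9, 61.0 and 75.3 TPM in the PRDM16 libraries, against 80.9, 104 and 73.9 in the NC libraries (-0.23 ± 0.12 log2, SE; edgeR adjusted p = 0.321). Its relative HERC6, the ISG15 ligase in mouse, was at 68.0 to 104 TPM (-0.13 ± 0.11). HERC5 and HERC6 are overlapped by an antisense RNA gene, LOC102723458, with 148 to 334 counts, and the strand setting of the counting is not given.

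The IFIT proteins, which bind foreign RNA ends, all had lower values with PRDM16 and 0 of 3 passed. IFIT1 lies on chromosome 10 at 89392623 to 89406487 (plus strand) and had 4514, 7019 and 11793 counts in the PRDM16 libraries, against 6428, 10136 and 5855 in the NC libraries, or 125, 139 and 169 TPM with PRDM16 and 171, 228 and 165 TPM with NC. PRDM16 library 3 lay between the NC libraries, so the groups overlapped. The log2 fold change was -0.25 ± 0.12 (SE; edgeR adjusted p = 0.318), and -0.12 without NC library 2. IFIT3 was the most abundant of the 3 at 308 to 503 TPM (-0.16 ± 0.12 log2, SE), and IFIT2 ranged over 112 to 198 TPM (-0.21 ± 0.13). The OAS enzymes, which make the short oligoadenylates that activate RNase L, lay close to 0. The log2 fold changes were 0.054 ± 0.12 for OAS1, -0.10 ± 0.12 for OAS2 and -0.058 ± 0.12 for OAS3 (SE), at levels of 198 to 237 TPM, 148 to 204 TPM and 313 to 420.2 TPM. OASL, a relative without that enzyme activity, was at 218 to 321 TPM (0.22 ± 0.15). The dynamin-like GTPase MX1, which blocks influenza virus, was at 536 to 708 TPM with a log2 fold change of -0.023 ± 0.13, and MX2, which restricts HIV, at 148 to 205 TPM with -0.14 ± 0.11 (SE). Of these 6 OAS and MX genes 0 passed in edgeR and 0 had an unadjusted p under 0.05.

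The ADP-ribosylation members PARP9, DTX3L and PARP14 lie near each other on chromosome 3 and all had lower values with PRDM16. PARP14, a mono-ADP-ribosyltransferase, lies on chromosome 3 at 122680726 to 122730840 (plus strand) and had 6587, 8253 and 16460 counts in the PRDM16 libraries, against 8988, 15792 and 7866 in the NC libraries. Its level was 91.8, 82.1 and 119 TPM with PRDM16 and 121, 179 and 112 TPM with NC: NC library 2 stood apart at the top, and PRDM16 library 3 lay among the other NC libraries. The log2 fold change of -0.35 ± 0.15 (SE) did not pass (edgeR adjusted p = 0.298) and was -0.15 without NC library 2. DTX3L, the ubiquitin ligase that pairs with PARP9, lies on chromosome 3 at 122564338 to 122575203 (plus strand) and had 5453, 7737 and 13386 counts in the PRDM16 libraries, against 7616, 10982 and 6777 in the NC libraries, or 122, 123 and 155 TPM with PRDM16 and 164, 199 and 154 TPM with NC. In scaled CPM all its PRDM16 libraries were below all its NC libraries, while in TPM PRDM16 library 3 lay just above NC library 3. Its log2 fold change was -0.23 ± 0.12 (SE; edgeR adjusted p = 0.319), and -0.15 without NC library 2. PARP9 was at 42.8 to 73.0 TPM (-0.20 ± 0.12 log2, SE). At the viperin locus, RSAD2, which makes an antiviral nucleotide, had 27.0 to 35.8 TPM (0.015 ± 0.12) and CMPK2, a mitochondrial nucleotide kinase beside it, 1.97 to 2.96 TPM (-0.21 ± 0.18).

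BST2, or tetherin, which holds budding virus at the cell surface, was among the most abundant members and close to level between the groups. It lies on chromosome 19 at 17402939 to 17405630 (minus strand) and had 16858, 22212 and 33794 counts in the PRDM16 libraries, against 18798, 20464 and 15424 in the NC libraries, or 2167, 2038 and 2252 TPM with PRDM16 and 2329, 2142 and 2019.8 TPM with NC, and the groups overlapped. Its log2 fold change was 0.13 ± 0.12 (SE; edgeR adjusted p = 0.536), and its sign turned to -0.079 with the length and GC trend removed. The growth-restricting SAMD9 and SAMD9L ranged over 53.6 to 126 TPM and 44.8 to 102 TPM, with log2 fold changes of -0.33 ± 0.21 and -0.33 ± 0.18 (SE), and in both genes NC library 2 was highest and PRDM16 library 2 lowest. XAF1, a pro-apoptotic partner of XIAP, showed the same order of these libraries at 43.5 to 96.8 TPM (-0.32 ± 0.17). EPSTI1, first described in stroma-exposed epithelial cancer cells, was at 28.8 to 45.9 TPM (-0.19 ± 0.11), with all its PRDM16 libraries below its NC libraries in scaled CPM.

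The small interferon-induced proteins held the most abundant member, IFI6, and log2 fold changes of both signs. IFI6 lies on chromosome 1 at 27666061 to 27672229 (minus strand) and had 39485, 55335 and 81198 counts in the PRDM16 libraries, against 42398, 46252 and 36132 in the NC libraries, or 5304, 5306 and 5654 TPM with PRDM16 and 5489.8, 5058 and 4944 TPM with NC. Its PRDM16 libraries were all above its NC libraries in scaled CPM but not in TPM, where NC library 1 was second highest. For IFI6 the log2 fold change was 0.21 ± 0.12 (SE; edgeR adjusted p = 0.360), and 0.00065 with the length and GC trend removed. IFI35, a leucine zipper protein of innate signalling, lies on chromosome 17 at 43006784 to 43014459 (plus strand) and had 10898, 13213 and 20564 counts in the PRDM16 libraries, against 10481, 11525 and 9539 in the NC libraries, or 997, 863 and 975 TPM with PRDM16 and 924, 858 and 889 TPM with NC. It too was separated in scaled CPM and overlapped in TPM, with a log2 fold change of 0.22 ± 0.12 (SE; edgeR adjusted p = 0.330), and 0.012 with the trend removed. IFI44, an antiviral GTPase-like protein, lies on chromosome 1 at 78648943 to 78664078 (plus strand) and had 3361, 4506 and 8121 counts in the PRDM16 libraries, against 4524, 7402 and 3860 in the NC libraries, or 72.9, 69.8 and 91.3 TPM with PRDM16 and 94.6, 131 and 85.3 TPM with NC. NC library 2 was highest and the groups overlapped. The log2 fold change was -0.27 ± 0.13 (SE; edgeR adjusted p = 0.311), and -0.10 without NC library 2. Its neighbour IFI44L ranged over 62.5 to 122 TPM with -0.26 ± 0.13. IFI27, a small mitochondrial protein, was abundant but uneven, at 556, 464 and 397 TPM with PRDM16 and 493, 233 and 421 TPM with NC (0.44 ± 0.38 log2, SE).

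Some members that sit side by side in the genome had nearly the same values, and others did not. The log2 fold changes were -0.33 and -0.33 for SAMD9 and SAMD9L, which lie 12077 bases apart on chromosome 7, and -0.26 and -0.27 for IFI44L and IFI44, 2798 bases apart on chromosome 1. Along chromosome 10 IFIT2, IFIT3 and IFIT1 had -0.21, -0.16 and -0.25, and along chromosome 12 OAS1, OAS3 and OAS2 had 0.054, -0.058 and -0.10. CMPK2 (-0.21) and RSAD2 (0.015) overlap by 903 bases on opposite strands, and PARP9 (-0.20) and DTX3L (-0.23) by 447. Reads in those overlaps cannot be assigned without strand.

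The direction of most members, but not of all, went with their base composition and length. Across the 36 listings the log2 fold change correlated with the GC content of the gene's transcripts (Spearman's rho = 0.733) and ran against the listed length (rho = -0.637). Over all tested genes the same rho values were 0.639 (13892 genes with a GC value) and -0.392. These are correlations across genes in 1 set of libraries, which are not independent replicates, and carry no p. The GC content of the members ran between 36% (SAMD9) and 66.9% (IRF7), with a median of 48.1%, against 50.2% for all tested genes with a value. Among the 18 GC-richer listings 11 were positive, for a median of 0.12 (log2), and among the 18 GC-poorer ones 17 were negative, for a median of -0.23. All tested genes on the same sides of that divide had medians of 0.13 and -0.17. So the members lay near other genes of like composition. With each library's trend along length and GC content removed, the medians were 0.0023 and -0.054, the median over all members was -0.046, and 0 of 36 had an unadjusted p under 0.05 (background 6.72%). That trend was fitted to each library's deviation from the mean of all libraries, so a group difference that runs along length or GC content is removed with it. Not every value shrank. XAF1 (54.5% GC) had -0.32 as counted and -0.34 with the trend removed. IFI27-2 (57.4% GC), at 7 to 16 counts, had -0.48 and -0.72.

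**Figure D3:**
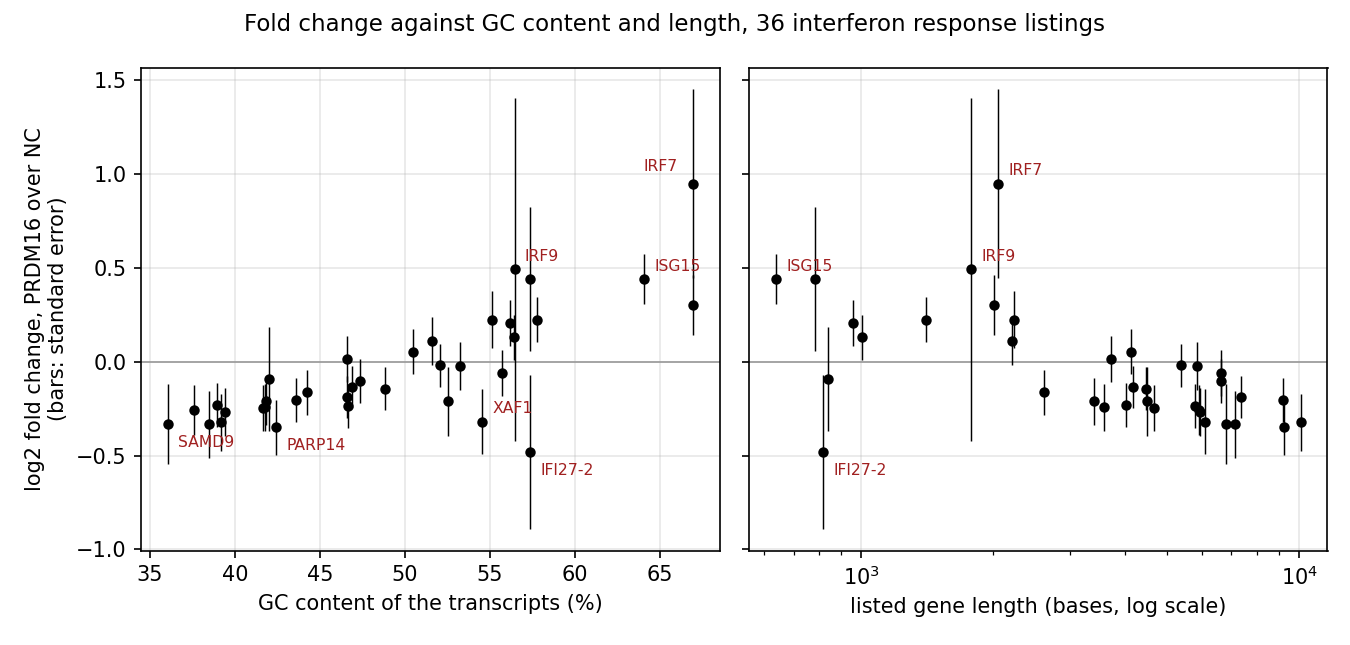
Log2 fold change, PRDM16 over NC, of the 36 tested interferon response listings against the GC content of their transcripts (left, %) and against listed gene length in bases on a log axis (right), with bars for the standard error. Short GC-rich listings such as ISG15 lie above 0 and long GC-poor ones such as SAMD9 below it.

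NC library 2 stood farthest along this pattern. The mean deviation of the GC-poorer members from their own mean over 6 libraries was -0.13, -0.21 and 0.030 in PRDM16 libraries 1, 2 and 3, against 0.049, 0.30 and -0.041 in NC libraries 1, 2 and 3, on the log2 scaled CPM scale. For the GC-richer members it was 0.14, 0.10 and -0.034 in the PRDM16 libraries and 0.12, -0.30 and -0.028 in the NC libraries. NC library 2 was thus highest for the GC-poor members and lowest for the GC-rich ones, and PRDM16 library 2 was the lowest for the GC-poor members. Without NC library 2 the members' rho with GC content was 0.481 and the medians of the GC-richer and GC-poorer members were 0.023 and -0.11. These removals cannot tell base composition or this library apart from a group difference that runs with them. Their part in the members' values was not tested. Averaged over all members the deviation of NC library 2 was near 0 (-0.00064).

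**Figure D4:**
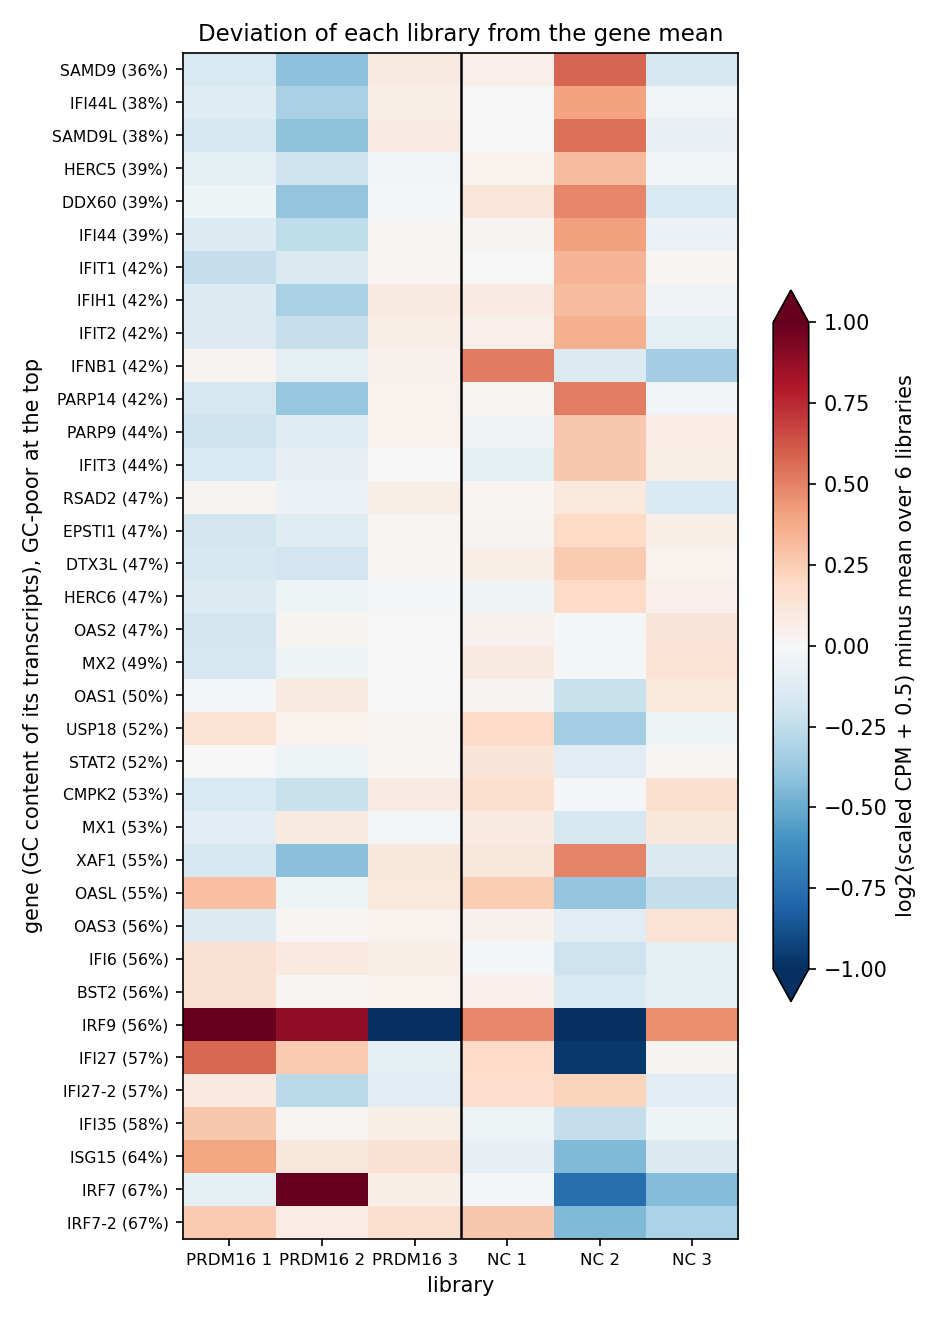
Deviation of each library from the gene's mean over the 6 libraries, in log2(scaled CPM + 0.5), for the 36 tested listings (rows, GC-poor at the top, GC content in brackets), with the 3 PRDM16 libraries left of the 3 NC libraries. NC library 2 is red in the upper rows and blue in many lower rows, while IRF9, IRF7 and IFI27 show changes of single libraries that go beyond those of their neighbours.

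IRF9, IRF7 and IFI27, the members listed at more than 1 place, spread most between libraries at their chromosome places among the listings that passed the filter. IRF9 had 1085, 1384 and 441 counts in the PRDM16 libraries, against 861, 245 and 769 in the NC libraries. PRDM16 library 3 and NC library 2 were low and the other 4 libraries high, which is not the division between the groups. Its log2 fold change was 0.49 ± 0.92 (SE; edgeR adjusted p = 0.790), and its second listing held 1 to 2 counts. IRF7 had 190, 721 and 465 counts in the PRDM16 libraries, against 243, 176 and 161 in the NC libraries, with PRDM16 library 2 far above the rest (0.95 ± 0.50 log2, SE; edgeR adjusted p = 0.388), and 0.38 without that library. Its scaffold listing IRF7-2 held more reads, 641, 816 and 1302 counts in the PRDM16 libraries, against 774, 585 and 462 in the NC libraries (0.30 ± 0.16). The chromosome listing held 29.9% of the gene's counts over all libraries. With both places summed, IRF7 was at 46.8 ± 7.19 scaled CPM with PRDM16 and 33.5 ± 9.39 with NC (SD, n = 3 each), a log2 fold change of 0.49 ± 0.18 (SE; edgeR adjusted p = 0.265). IFI27 had 3378, 3948 and 4649 counts in the PRDM16 libraries, against 3108, 1742 and 2511 in the NC libraries, with NC library 2 lowest, and IFI27-2 had 7 to 16 counts.

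The SD of log2(scaled CPM + 0.5) over the 6 libraries was 1.15 for IRF9, 0.681 for IRF7 and 0.522 for IFI27 at their chromosome places, and 0.307 for IRF7-2 and 0.194 for IFI27-2 on the scaffolds, where the added 0.5 narrows the spread of a low level such as that of IFI27-2. The median was 0.167 over the 31 members at 1 place. Over all tested genes it was 0.322 for the 995 listings of genes with several places and 0.175 for the 14386 with 1 place. With both places summed, IRF9 was at 33.3 ± 19.8 scaled CPM over the 6 libraries, against 33.2 ± 19.8 at its chromosome place (SD). For IFI27 these were 124 ± 38.3 and 124 ± 38.3. The chromosome places held 99.8% of the counts of IRF9 and 99.7% of those of IFI27. How reads that match several places were assigned is not given in the sources used here, and its part in these values was not tested. Genes beside IRF9 on chromosome 14 that also have a scaffold listing, picked after their values were seen, moved between libraries in orders of their own. PSME1, a proteasome activator subunit, had 185, 296 and 341 counts in the PRDM16 libraries, against 167, 6033 and 173 in the NC libraries. Its partner PSME2 had 3306, 5326 and 2185 counts in the PRDM16 libraries, against 1000, 223 and 3529 in the NC libraries. RNF31, a ubiquitin ligase subunit, had 90, 496 and 1076 counts in the PRDM16 libraries, against 95, 374 and 146 in the NC libraries. NC library 2 was the highest for PSME1 and the lowest for PSME2, and in IRF9 it was the lowest as well.

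**Figure D5:**
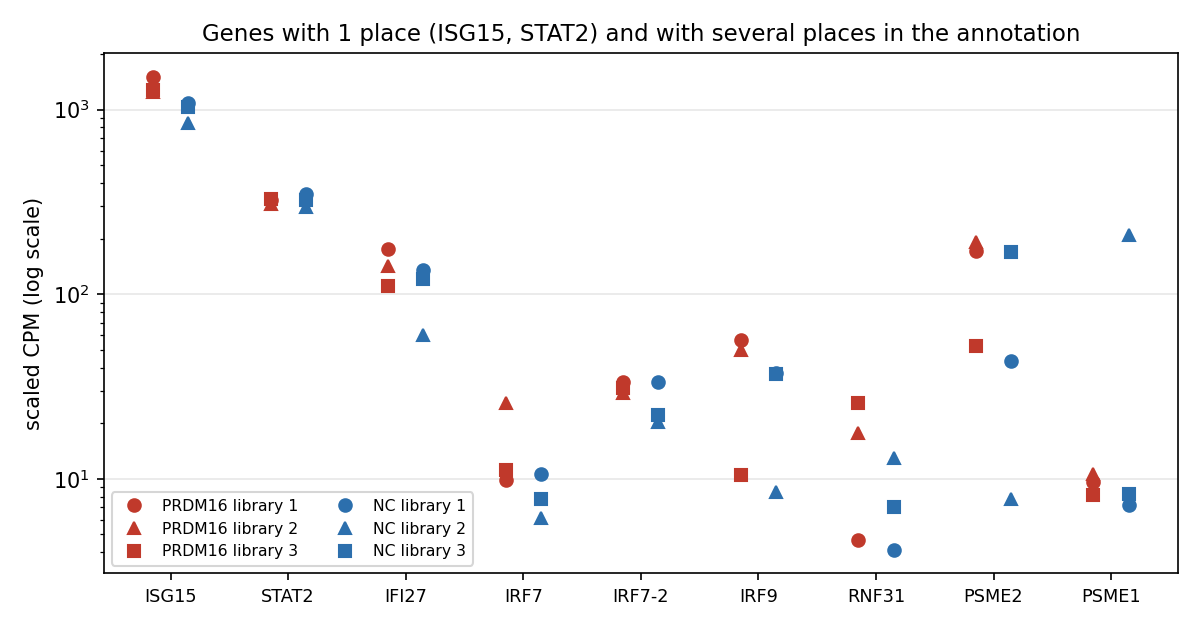
Scaled CPM on a log axis in each PRDM16 library (red, left) and NC library (blue, right) for ISG15 and STAT2, which have 1 place in the annotation, and for genes with several, where the shape of a point gives the library number. The points of ISG15 and STAT2 lie close together, while those of IRF9, IRF7, RNF31, PSME2 and PSME1 spread widely within the groups.

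Other genes of the pathway were read from lists chosen with the members, and 0 of the tested genes passed in any list. Of 11 receptor and JAK-STAT genes, 0 passed and the median log2 fold change was -0.11, against -0.024 over all tested genes. The receptor kinase TYK2 was at 88.4 ± 6.90 TPM with PRDM16 and 82.8 ± 7.27 with NC (SD, n = 3; 0.23 ± 0.11 log2, SE; edgeR adjusted p = 0.315), and STAT3 had a log2 fold change of -0.044 ± 0.11. Of 20 nucleic acid sensing genes 17 were tested, 0 passed, and the median was -0.088. DDX58, the RIG-I sensor of viral RNA, was at 157 ± 28.2 TPM with PRDM16 and 195 ± 39.4 with NC (-0.18 ± 0.13), and its ubiquitin ligase TRIM25 had -0.17 ± 0.11. The nucleotide-depleting enzyme SAMHD1 had -0.24 ± 0.12 and DHX58, a relative of RIG-I, 0.22 ± 0.11. Of 14 negative regulators and related enzymes, 0 passed, 0 were higher and 3 lower at an unadjusted p under 0.05 (9.23% higher and 6.76% lower over all tested genes), and the median was -0.12. The smallest p belonged to TRIM24, a chromatin reader, with -0.39 ± 0.13 (edgeR adjusted p = 0.287) at 5.83 ± 0.788 TPM with PRDM16 and 8.42 ± 1.78 with NC, and to the phosphatase PTPN11 with -0.33 ± 0.13. The most abundant were the phosphatase PTPN1 (-0.15 ± 0.11) and the ISG15 activating enzyme UBA7 (0.19 ± 0.11).

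A wider list of 40 other interferon stimulated genes, of which 38 were tested, also had 0 that passed. At an unadjusted p under 0.05 it held 6 higher and 1 lower of 38 (9.23% higher and 6.76% lower over all tested genes), and its median was 0.034, on the other side of 0 from that of the members (-0.14). The membrane proteins IFITM3 and IFITM1, which block virus entry, were more abundant than most members, with IFITM3 at rank 11 of all tested genes. IFITM3 was at 5692 ± 308 TPM with PRDM16 and 5352 ± 325 with NC (SD, n = 3; 0.23 ± 0.12 log2, SE) and IFITM1 at 4048 ± 388 TPM with PRDM16 and 3758 ± 369 with NC (0.24 ± 0.13). LY6E, a surface protein on chromosome 8, had the smallest p, at 133 ± 29.3 TPM with PRDM16 and 99.5 ± 21.8 with NC (0.55 ± 0.16 log2, SE; edgeR adjusted p = 0.251), and 0.24 with the length and GC trend removed. EIF2AK2, the kinase PKR that stops translation on viral RNA, was at 45.3 ± 5.49 TPM with PRDM16 and 63.1 ± 15.3 with NC (-0.34 ± 0.13; edgeR adjusted p = 0.298), and -0.064 with the trend removed. Of 15 genes more tied to interferon gamma, 12 were tested, 0 passed, and the median was 0.047. The most abundant were WARS1, a tryptophan tRNA synthetase (0.0031 ± 0.12), and the adhesion molecule ICAM1 (0.13 ± 0.12). The GTPase GBP1 was at 116 ± 22.8 TPM with PRDM16 and 152 ± 25.0 with NC (-0.25 ± 0.12), and PSMB9, an immunoproteasome subunit, had 5 to 30 counts at its place on chromosome 6 (0.75 ± 0.50).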

How the data were processed

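Messenger RNA of 6 HPC libraries was sequenced after capture on oligo(dT) beads, per the labels' protocols. Each library has a table in which the authors gave raw counts, TPM and FPKM for every gene, per the file headers. Coordinates are in hg38, the build named in the submitters' processing notes. No source used here gives the aligner, the counting rule or its strand setting. The deposited counts were used for all tests and the deposited TPM for levels. The deposited FPKM values were not used. For 7 genes, entries split by line breaks were rejoined.

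Counts were tested with edgeR 4.0.16 (robust quasi-likelihood, TMM factors, filterByExpr defaults of 10 counts and 15 in total) in R 4.3.3, PRDM16 over NC, with Benjamini-Hochberg adjustment over all 15381 genes and a threshold of 0.05. The common biological coefficient of variation was 0.146. Scaled CPM are counts per 1000000 after TMM scaling. DESeq2 1.42.0, limma-voom (limma 3.58.1), other filters, scalings and sums, a replicate block and leaving out each library were alternatives. The steps were tested on simulated data.

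GC content is that of GENCODE 29 transcripts, found for 13892 tested genes (90.3%). The trend was removed with splines (5 degrees of freedom) of log2 length and GC content as offsets. Promoter windows came from RefSeq. A floor of 3 counts covers counting error only. No pair of libraries of a group was within sampling noise (chi-square per degree of freedom 11.3 to 34.8).

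The members, lists and tests were chosen with earlier results of these data known. Full values are given for the 6 tested members with the smallest p, the 4 with the highest mean TPM (ISG15 is in both) and IFNB1. In each pathway list the genes with the smallest p and the highest TPM, 2 each, are named. Some genes of the lists are not reported here. Symbols IFNL4, WARS, RIGI, MB21D1, TMEM173 and KIRREL were not matched, and the current or older name of the same gene was used for the last 5.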

Additional observations from a re-analysis of the deposited data

How the results depend on the processing

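Across the 14 alternatives run on the comparison (normalization, filter, tool, replicate block, trend, summed places, each library left out) 0 interferon members were called. The number of genes called overall was 10, and 48 with DESeq2, 107 with no count filter, 18 with places summed, 4 with limma-voom, 5 with the length and GC trend removed and 4 with that trend and the replicate block. Leaving out single libraries gave 7 to 173, where 173 belongs to the fit that drops NC library 3, 59 to the fit that drops PRDM16 library 2 and 20 to the fit that drops PRDM16 library 1. The members' median log2 fold change of -0.14 was -0.046 with the trend removed and -0.042 with the block as well, and -0.17 to -0.098 with single libraries left out. The sign of BST2 turned to -0.079 with the trend removed and -0.078 with the block too, and that of IFNB1 to 0.30 without NC library 1 (range -0.30 to 0.30). PRDM16 (fitted log2 fold change against 0 counts, which is no bound, 7.02) lost its call with block and trend together (6.98). In the pathway lists 1 gene was called, LY6E, with no count filter and without PRDM16 library 2, and 0 to 1 over the libraries left out. The difference in mean member level was -0.032 in log2 scaled CPM and -0.17 in log2(TPM + 0.5), with -0.057 to 0.00170 when single libraries were left out. The ISRE core was in 60.5% of member windows and its run of 3 repeats in 10.5%. The cause of these shifts was not tested.

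The labels do not say that the replicate numbers pair the libraries. Deviations of same-numbered libraries were weakly correlated (0.090, -0.10 and -0.12), which cannot show whether those libraries were handled together. With the replicate block 10 genes and 0 members were called, with a member median of -0.14. With 3 libraries a group and genes at few counts such as IFNB1 and IFI27-2, small differences were not detectable at this depth.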

Other observations

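Genes of antigen presentation that interferon also induces showed how far a count at 1 place can fall short of a gene's total; these were chosen after their values were seen. TAP1, which pumps peptides into the endoplasmic reticulum, is listed at 8 places. Its listing on chromosome 6 held 10 to 35 counts per library, 4.80% of the gene's counts, and the sum over all places was 300 to 693. Summed, TAP1 was at 15 ± 2.04 scaled CPM with PRDM16 and 14.3 ± 1.47 with NC (SD, n = 3 each; log2 fold change 0.077 ± 0.14, SE). PSMB9, an immunoproteasome subunit gene beside it, is also listed at 8 places. Its chromosome listing held 9.84% of its counts, and its log2 fold change was 0.75 there and 0.35 ± 0.20 over all places (edgeR adjusted p = 0.340).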
